A study of Mus musculus with 18 samples.

Results

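The regulators of the p53 feedback loop followed here are 7 genes: Mdm2, Mdm4, Ppm1d, Ccng1, Rchy1, Cop1 and Trp53inp1. They were taken by symbol from a table of 25239 genes, and all 7 were found. All 7 also passed the filter on low values and were among the 12828 genes tested. RNA-sequencing had been performed on 18 samples from the lines 4711-1, 4711-18 and 4716-11. These 3 Type D cell lines came from mouse small cell lung cancer (SCLC) and belong to the class of lines that died after p53 was restored. The mouse model lacks Rb1 and Rbl2 and carries a Trp53 XTR allele that a gene trap keeps silent, so both losses and this allele, trapped or released, are shared by every group. Each line had been selected for a LentiCRISPR vector with sgBgal, the control sgRNA, or with sgPpia#3.2 or sgPpia#4.1, which target Ppia, the gene of cyclophilin A. Each of these populations received vehicle (Control) or 4-hydroxytamoxifen (4-OHT), which activates FlpO-ER and excises the trap (Restored), for 72 h. This gave 6 conditions of 3 samples, with the cell line as the replicate. The lines are tumor-derived cultures, the populations were selected pools, and those with a Ppia sgRNA still made Ppia transcript.

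p53 switches on several of the genes that restrain it, so that its activity is held in a loop. Mdm2 is a ubiquitin ligase that binds p53 and sends it to the proteasome, and Rchy1 (Pirh2) and Cop1 are further ligases that act on p53. Mdm4, a relative of Mdm2, blocks the activation domain of p53 and pairs with Mdm2. Ppm1d (Wip1) is a phosphatase that removes stress marks from p53 and from the kinases upstream of it, and Ccng1 encodes cyclin G, which brings the phosphatase PP2A to Mdm2. Trp53inp1 differs from the others in its known role: it works with kinases that phosphorylate p53 and promotes cell death and autophagy, so it is a feedback gene without being an inhibitor.

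Promoter sequences were read for the members with an entry in the RefSeq table of starts (GRCm38.p6). Trp53inp1 had no entry. Each window covered the 250 bases before an annotated start and was searched on both strands for the p53 half-site, a palindromic motif of 10 bases with a C and a G around its central pair, given here by its name. Of the 6 members with a window, 4 held a match: Mdm2, Ccng1, Ppm1d and Rchy1. No match was found in the windows of Mdm4 and Cop1, and a full site of a pair of half-sites was found in none of the members. Of all 27025 genes with a window, 8.20% held a half-site. Across all 32851 windows of this length the share was 7.13%, and 0.0639% held a full site. The 3 windows below that hold a match are shown because these genes rose after restoration, and Cop1 is shown because its level hardly moved. The half-site stands in capitals, and each line reads 5′ to 3′ on the strand of the gene.
Mdm2 (chr10:117710759-117711008, minus strand): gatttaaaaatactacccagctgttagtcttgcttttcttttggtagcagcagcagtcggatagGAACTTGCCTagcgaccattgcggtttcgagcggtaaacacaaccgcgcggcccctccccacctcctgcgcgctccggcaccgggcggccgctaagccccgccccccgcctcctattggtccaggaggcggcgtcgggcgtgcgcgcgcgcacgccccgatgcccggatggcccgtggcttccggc
Ccng1 (chr11:40755287-40755536, minus strand): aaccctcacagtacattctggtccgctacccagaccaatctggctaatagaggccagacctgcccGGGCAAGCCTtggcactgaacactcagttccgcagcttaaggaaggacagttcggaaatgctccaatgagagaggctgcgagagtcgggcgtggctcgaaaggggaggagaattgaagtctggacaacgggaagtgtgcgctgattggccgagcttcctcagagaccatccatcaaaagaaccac
Ppm1d (chr11:85311004-85311253, plus strand): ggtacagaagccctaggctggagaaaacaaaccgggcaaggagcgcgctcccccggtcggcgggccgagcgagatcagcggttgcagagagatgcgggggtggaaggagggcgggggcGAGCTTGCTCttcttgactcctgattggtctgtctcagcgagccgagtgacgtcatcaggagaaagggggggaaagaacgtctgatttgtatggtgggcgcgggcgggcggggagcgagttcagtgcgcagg
Cop1 (chr1:159231950-159232199, plus strand): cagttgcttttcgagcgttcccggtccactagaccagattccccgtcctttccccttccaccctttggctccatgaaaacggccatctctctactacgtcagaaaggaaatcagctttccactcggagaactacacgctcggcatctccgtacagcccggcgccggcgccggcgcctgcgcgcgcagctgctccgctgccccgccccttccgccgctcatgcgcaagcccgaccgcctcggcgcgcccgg

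The first base of the match lay 186 bases before the start of Mdm2, 185 before that of Ccng1 and 132 before that of Ppm1d. Rchy1 has 2 listed starts. The window of 1 of them, chr5:91962557-91962806 on the minus strand, held a match 90 bases before the start and lies inside the annotated gene. A match describes letters only, and p53 binding was not measured in these files. The response elements through which p53 is known to act on Mdm2 lie in its first intron, outside the window shown. In the GENCODE annotation of GRCm38, Mdm2 spans chr10:117688875-117710758, Ccng1 chr11:40748552-40755311, Rchy1 chr5:91948904-91963068, all on the minus strand, and Mdm4 chr1:132959484-133030561, also on the minus strand. On the plus strand, Ppm1d spans chr11:85311244-85347066, Cop1 chr1:159232320-159347640 and Trp53inp1 chr4:11156431-11174379. Of these genes Rchy1 shares exonic bases with a neighbor on the other strand: 680 bases overlap with Thap6, which had a median of 10.4 TPM in Restored samples. Whether the counting used strand is not given in the sources used here, so reads in those bases cannot be told apart.

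Values are TPM (transcript abundance scaled for gene length and to one fixed total per sample), so the sequencing depth is unknown. Trp53 itself ranged from 5.45 to 8.41 TPM over 9 Control samples and from 181 to 236 TPM over 9 Restored samples. Ppia was lower with either Ppia sgRNA than with sgBgal in 6 of 6 comparisons within a line before restoration, at 25.5% to 68.5% of the level with sgBgal, and in 6 of 6 after it, at 42.4% to 81.4%. Rb1 and Rbl2 still had transcript (summed level 5.34 to 13.4 TPM in Control and 18.6 to 37.4 TPM in Restored samples), and gene-level values do not show whether the deleted exons are present. The neuroendocrine markers Neurod1, Calca, Chga and Chgb were below 1 TPM in every Control and every Restored sample. Other neuroendocrine markers were detected: Ncam1 ranged from 6.90 to 29.7 TPM, Syp from 3.03 to 7.12 TPM and Uchl1 from 1.21 to 2.81 TPM over all samples, and Insm1 reached 3.37 TPM in Control and 2.41 TPM in Restored samples. Of the epithelial markers, all 4 were at or above 1 TPM in at least 1 sample of each state, with a sum of 9542 to 17735 TPM in Control and 4874 to 11681 TPM in Restored samples. Epcam was low, with a median of 0.757 TPM in Control and 0.369 TPM in Restored samples. The medians were 5808 and 3187 TPM for Krt8 and 4671 and 2787 TPM for Krt18. In no sample did the 5 fibroblast markers sum to more than 1.22 TPM, the 6 immune markers to more than 2.95 TPM or the 3 endothelial markers to more than 1.44 TPM. The part that the fall of the epithelial sum plays in the results below was not tested. In bulk RNA, fewer cells that express a gene and less RNA per cell cannot be told apart.

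The first question was how the regulators responded when p53 came back. Mdm2, Ccng1, Trp53inp1, Mdm4 and Ppm1d rose with each of the 3 sgRNAs, Rchy1 rose by less than the minimum set for a call, and Cop1 did not pass the test. Averaged over the sgRNAs, the change on the log2(TPM + 1) scale was 3.99 for Mdm2, 3.73 for Ccng1, 3.46 for Trp53inp1, 1.77 for Mdm4, 1.37 for Ppm1d, 0.88 for Rchy1 and 0.06 for Cop1 (standard errors 0.10 to 0.17). A gene was called when its limma adjusted p, over all genes tested, was under 0.05 and its log2 fold change was 1 or more in size. By this rule 5 of 7 members were called up with sgBgal, where 5.46% of all genes tested were called up. The same 5 were called with sgPpia#3.2 (background 4.44%), with sgPpia#4.1 (4.3%) and in the mean of the sgRNAs (6.37%). Without the minimum fold change 6 of 7 members passed in each of these comparisons, against 9.86%, 7.62%, 7.16% and 27.9% of all genes in the same order. Among the 12828 genes ordered by their rise in the mean of the sgRNAs, Mdm2 stood at position 16, Ccng1 at 25, Trp53inp1 at 29, Mdm4 at 231, Ppm1d at 439, Rchy1 at 1106 and Cop1 at 7745. In 6 of 7 members the lowest Restored sample lay above the highest Control sample, as it did for 8.12% of the genes tested.

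**Figure D1:**
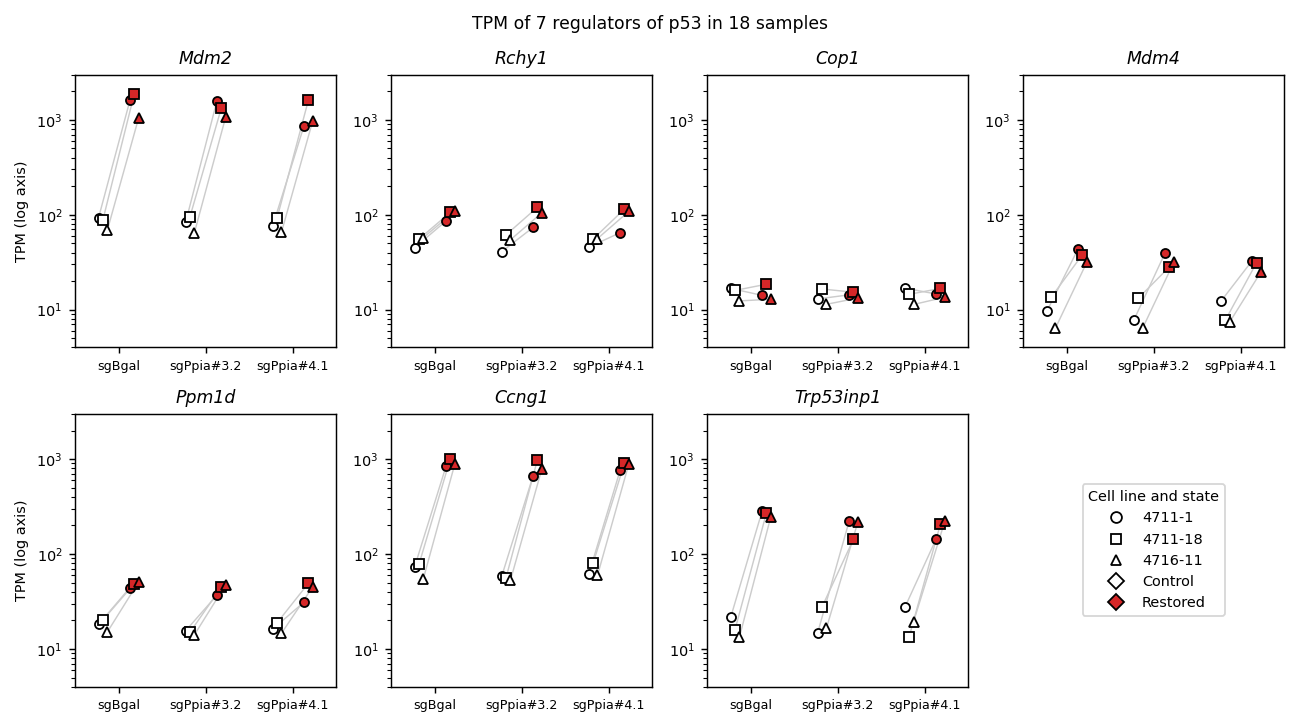
TPM (log axis) of the 7 regulators in every sample, by sgRNA on the horizontal axis, with open symbols for Control, red symbols for Restored, a symbol shape for each cell line and a grey line joining the samples of a line. Control and Restored samples are separate for all genes but Cop1, whose 18 values lie between 11.3 and 18.5 TPM.

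The median of all genes tested also moved, by 0.19 for sgBgal, 0.17 for sgPpia#3.2, 0.15 for sgPpia#4.1 and 0.17 in their mean. Rescaling TPM by median-of-ratios factors brought this shift to between -0.0068 and -0.0025, and moved the calls over all genes with sgBgal from 701 up and 279 down to 479 up and 391 down. Relative to the median, the 5 called members stayed called with every sgRNA: Mdm2 rose by 3.91, 3.82 and 3.65, Ccng1 by 3.49, 3.61 and 3.48, Trp53inp1 by 3.70, 3.06 and 3.05, Mdm4 by 1.67, 1.62 and 1.46 and Ppm1d by 1.17, 1.27 and 1.10 with sgBgal, sgPpia#3.2 and sgPpia#4.1. The same rescaling split the calls into 413 up and 243 down with sgPpia#3.2 (570 and 168 before) and into 414 up and 296 down with sgPpia#4.1 (552 and 229 before). In the mean of the sgRNAs it gave 585 up and 475 down (817 and 329 before).

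Mdm2 had the highest mean level before restoration and the one that rose most in the mean of the sgRNAs. In Control cells of 4711-1, 4711-18 and 4716-11, Mdm2 stood at 93.3, 88.8 and 68.6 TPM with sgBgal, 83.6, 95.7 and 64.4 TPM with sgPpia#3.2 and 76.2, 92.3 and 65.2 TPM with sgPpia#4.1. In Restored cells of these lines it stood at 1604, 1884 and 1047 TPM with sgBgal, 1591, 1332 and 1072 TPM with sgPpia#3.2 and 868, 1613 and 978 TPM with sgPpia#4.1. The states did not overlap, and the lowest Restored value, in 4711-1 with sgPpia#4.1, was still 11.4 times the Control value of the same population. The fold over the 9 populations had a median of 16.6 and reached 21.2 in 4711-18 with sgBgal. The log2 fold change of Mdm2 was 4.13, 4.02 and 3.83 with sgBgal, sgPpia#3.2 and sgPpia#4.1 (standard error 0.27 each, limma adjusted p = 2.64e-07, 3.57e-07 and 6.42e-07). In 4716-11 the Control level was lowest, with a mean of 66.1 ± 2.22 TPM (SD over 3 sgRNA populations), and the response of this line was 3.94 ± 0.08 on the log2(TPM + 1) scale, against 3.94 ± 0.39 in 4711-1 and 4.10 ± 0.30 in 4711-18.

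Rchy1 is the other ligase of the set that moved. Control levels of Rchy1 in 4711-1, 4711-18 and 4716-11 were 45.01, 55.5 and 57.5 TPM with sgBgal, 40.8, 61.4 and 54.5 TPM with sgPpia#3.2 and 45.4, 55.5 and 56.03 TPM with sgPpia#4.1. Restored levels in the same order were 86.0, 106 and 109 TPM with sgBgal, 73.5, 120.0 and 105 TPM with sgPpia#3.2 and 64.8, 115 and 109 TPM with sgPpia#4.1. The states were separate by a narrow margin, since the highest Control value was 61.4 TPM and the lowest Restored value 64.8 TPM. The 2 populations behind these values are 4711-18 with sgPpia#3.2 and 4711-1 with sgPpia#4.1. The log2 fold change of Rchy1 was 0.92, 0.91 and 0.83 with sgBgal, sgPpia#3.2 and sgPpia#4.1 (standard error 0.24 each, limma adjusted p = 0.0213, 0.027 and 0.041). None of these estimates reached the minimum of 1. Only 3 of 9 fits that left out a cell line kept an adjusted p under 0.05, the 3 without 4711-1, and the others gave limma adjusted p-values from 0.117 to 0.344. In the 6 fits that missed, the log2 fold change of Rchy1 was still 0.72 to 0.92, with standard errors of 0.31 and 0.36 against 0.24 with all lines and 0.16 without 4711-1. It also missed the threshold when the compared groups were fitted alone with sgPpia#3.2 (limma adjusted p = 0.117) and sgPpia#4.1 (0.152), which left its estimates as they were and gave standard errors of 0.26 and 0.27, and without a filter on low values with sgPpia#4.1 (0.0571). After median-of-ratios rescaling Rchy1 differed by 0.70, 0.71 and 0.65, with limma adjusted p = 0.0689, 0.0777 and 0.102, so it no longer passed with any single sgRNA. It passed again when the cell line was added as a replicate block to the rescaled values (limma adjusted p = 0.000368, 0.000425 and 0.000646). In the mean of the sgRNAs Rchy1 had an adjusted p under 0.05 in all 11 fits (highest limma adjusted p = 0.0196). Its change there was 0.69 to 0.95, still below the minimum of 1.

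Cop1, which belongs to a cullin ligase complex, stayed within the spread of its samples. Before restoration Cop1 was measured in these lines, in the same order, at 16.8, 15.96 and 12.4 TPM with sgBgal, 12.98, 16.5 and 11.4 TPM with sgPpia#3.2 and 16.9, 14.5 and 11.3 TPM with sgPpia#4.1. After restoration it was measured at 14.2, 18.5 and 12.9 TPM with sgBgal, 14.3, 15.3 and 13.3 TPM with sgPpia#3.2 and 14.6, 16.8 and 13.5 TPM with sgPpia#4.1. The ranges of both states overlap for most of their length. Cop1 was higher after restoration in 6 of 9 populations, and the ratio of Restored to Control ran from 0.844 to 1.19. The log2 difference was 0.01, 0.08 and 0.08 with sgBgal, sgPpia#3.2 and sgPpia#4.1, and after rescaling it was -0.20, -0.11 and -0.09, so its sign depended on the scaling. In the mean of the sgRNAs the 95% interval was -0.18 to 0.29 (limma adjusted p = 0.723), which leaves out a change as large as that of Rchy1.

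Mdm4, the partner of Mdm2, had the lowest mean level in Control cells with each sgRNA. In Control cells of 4711-1, 4711-18 and 4716-11, Mdm4 stood at 9.57, 13.5 and 6.39 TPM with sgBgal, 7.74, 13.1 and 6.34 TPM with sgPpia#3.2 and 12.2, 7.71 and 7.37 TPM with sgPpia#4.1. In Restored cells of these lines it stood at 43.7, 38.03 and 31.5 TPM with sgBgal, 39.8, 28.3 and 31.6 TPM with sgPpia#3.2 and 32.9, 31.3 and 24.9 TPM with sgPpia#4.1. All Restored values lay above all Control values, but the size of the step differed between populations. It was 2.16-fold in 4711-18 with sgPpia#3.2, 2.69-fold in 4711-1 with sgPpia#4.1 and 2.83-fold in 4711-18 with sgBgal, and between 3.38-fold and 5.14-fold in the other 6. The populations with the 3 smallest steps had the 3 highest Control values, 13.1, 12.2 and 13.5 TPM. The log2 fold change of Mdm4 was 1.88, 1.81 and 1.62 with sgBgal, sgPpia#3.2 and sgPpia#4.1 (standard error 0.28 each, limma adjusted p = 0.000621, 0.000937 and 0.00204). Without 4711-1, Mdm4 with sgPpia#3.2 rose by 1.60 and missed the threshold (limma adjusted p = 0.0584).

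The balance of the Mdm2 and Mdm4 transcripts shifted toward Mdm2. In Control cells the ratio of their TPM was 9.03 ± 2.16 (SD, n = 3) for sgBgal, 9.41 ± 1.87 for sgPpia#3.2 and 9.02 ± 2.88 for sgPpia#4.1. Restoration brought it to 39.8 ± 8.59 with sgBgal, 40.3 ± 6.56 with sgPpia#3.2 and 39.1 ± 12.6 with sgPpia#4.1. Over the 9 populations of a state the ratio ran from 6.22 to 11.97 in Control and from 26.4 to 51.6 in Restored cells, without overlap. On the log2 scale of (TPM + 1) it rose by 2.25, 2.21 and 2.21, with p = 0.1 for each sgRNA in an exact permutation test (two-sided), the smallest that 3 samples against 3 allow. Set against Trp53, whose own transcript rose by more than that of Mdm2, the ratio of Mdm2 to Trp53 moved the other way. It was 9.01 to 17.6, with a median of 11.2, in Control and 4.34 to 9.13, with a median of 7.20, in Restored samples. The Control and Restored ranges of this ratio overlap only between 9.01 and 9.13. In Control cells the Trp53 allele is trapped, and 4-OHT releases it. The direction of this ratio is therefore set in part by the design.

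**Figure D2:**
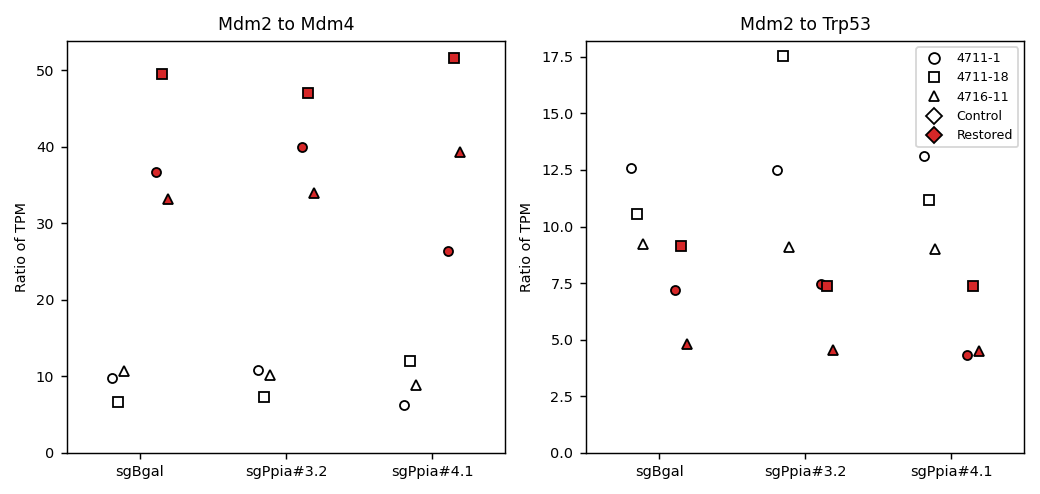
Ratio of Mdm2 to Mdm4 TPM (left) and of Mdm2 to Trp53 TPM (right) in each of the 18 samples, by sgRNA, with open symbols for Control, red symbols for Restored and a symbol shape for each cell line. The left ratio is 6.22 to 11.97 in Control and 26.4 to 51.6 in Restored samples, and the right ratio has a median of 11.2 in Control and 7.20 in Restored samples.

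Ppm1d, the phosphatase, gave the smallest rise among the called members. Control levels of Ppm1d in 4711-1, 4711-18 and 4716-11 were 18.2, 20.3 and 15.1 TPM with sgBgal, 15.6, 14.998 and 14.1 TPM with sgPpia#3.2 and 16.2, 18.9 and 14.6 TPM with sgPpia#4.1. Restored levels in the same order were 44.3, 48.7 and 50.95 TPM with sgBgal, 36.9, 44.99 and 47.5 TPM with sgPpia#3.2 and 31.2, 49.2 and 45.2 TPM with sgPpia#4.1. The highest Control value was 20.3 TPM and the lowest Restored value 31.2 TPM, so the states were separate. The log2 fold change of Ppm1d was 1.39, 1.47 and 1.27 with sgBgal, sgPpia#3.2 and sgPpia#4.1 (standard error 0.18 each, limma adjusted p = 0.000194, 0.00013 and 0.000421). By line the response was 1.11 ± 0.18 in 4711-1, 1.36 ± 0.15 in 4711-18 and 1.65 ± 0.07 in 4716-11 (SD over 3 sgRNA populations). This was the only member with an unadjusted p under 0.05 for a difference in response between the lines (limma F test, adjusted p = 0.23). The same was found for 2197 of the 12828 genes tested, so it does not set Ppm1d apart. Without 4716-11, Ppm1d with sgPpia#4.1 rose by 1.12 and missed the threshold (limma adjusted p = 0.0573).

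Ccng1, the cyclin that recruits PP2A, rose to the level nearest that of Mdm2. Before restoration Ccng1 was measured in these lines, in the same order, at 73.5, 78.1 and 54.99 TPM with sgBgal, 58.4, 56.4 and 52.8 TPM with sgPpia#3.2 and 61.4, 80.2 and 59.5 TPM with sgPpia#4.1. After restoration it was measured at 839, 1010.4 and 879 TPM with sgBgal, 663, 982 and 781 TPM with sgPpia#3.2 and 760.3, 904 and 888 TPM with sgPpia#4.1. The states were far apart, with a fold of 11.3 to 17.4. The log2 fold change of Ccng1 was 3.71, 3.81 and 3.65 with sgBgal, sgPpia#3.2 and sgPpia#4.1 (standard error 0.18 each, limma adjusted p = 1.79e-08, 1.84e-08 and 2.58e-08). In 4711-1 with sgPpia#4.1, where Mdm2, Rchy1 and Ppm1d had their lowest Restored values, Ccng1 stood at 760.3 TPM, below the 839 TPM of this line with sgBgal and above its 663 TPM with sgPpia#3.2, the lowest Restored value of Ccng1.

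Trp53inp1, the co-regulator of p53, showed the widest range of responses. In Control cells of 4711-1, 4711-18 and 4716-11, Trp53inp1 stood at 21.6, 16.01 and 13.3 TPM with sgBgal, 14.9, 27.8 and 16.6 TPM with sgPpia#3.2 and 27.4, 13.5 and 19.4 TPM with sgPpia#4.1. In Restored cells of these lines it stood at 281, 269.9 and 245 TPM with sgBgal, 221, 143 and 216 TPM with sgPpia#3.2 and 144, 209 and 222 TPM with sgPpia#4.1. States did not overlap. The rise was 5.16-fold in 4711-18 with sgPpia#3.2 and 5.26-fold in 4711-1 with sgPpia#4.1, and between 11.4-fold and 18.5-fold in the other 7 populations. Those 2 populations had the highest Control values, 27.8 and 27.4 TPM, and the lowest Restored values, 143 and 144 TPM. They also stood apart for the p53 target Cdkn1a, which rose 7.53-fold and 12.1-fold there, the smallest of the 9 folds, against 17.5-fold to 24.7-fold elsewhere. Its Control level in 4711-18 with sgPpia#3.2 was 369 TPM, against 99.4 to 171 TPM in the other populations. Mdm2 (13.9-fold and 11.4-fold) and Mdm4 (2.16-fold and 2.69-fold) also had their 2 smallest folds in these populations. Ccng1 did not: it rose 17.4-fold and 12.4-fold there, in a range of 11.3-fold to 17.4-fold. Nor did Trp53, which rose 33.2-fold and 34.4-fold in a range of 24.5-fold to 34.4-fold. What sets these libraries apart was not tested. The log2 fold change of Trp53inp1 was 3.92, 3.25 and 3.22 with sgBgal, sgPpia#3.2 and sgPpia#4.1 (standard error 0.29 each, limma adjusted p = 8.08e-07, 6.14e-06 and 7.45e-06).

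**Figure D3:**
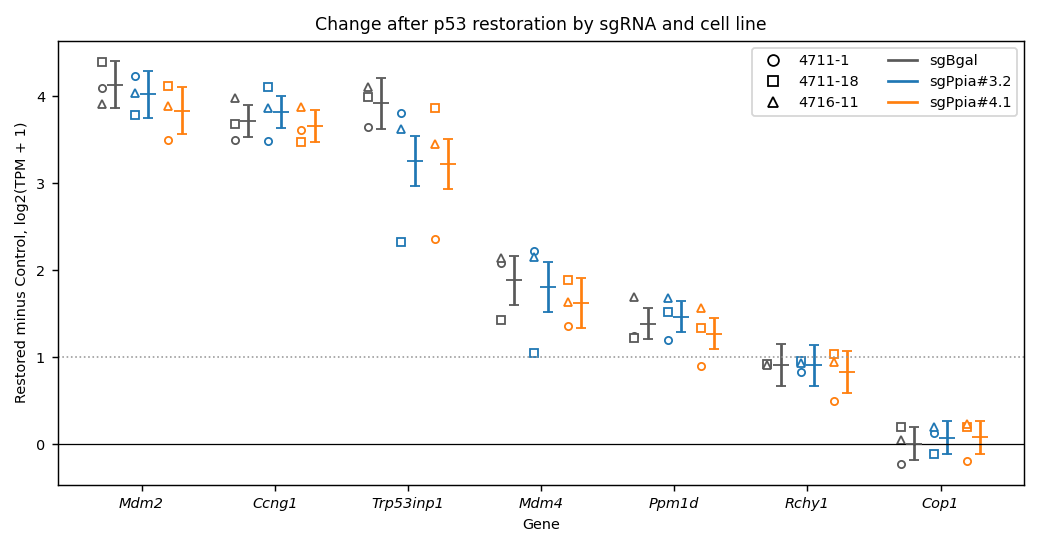
Restored minus Control difference of log2(TPM + 1) for each regulator, by sgRNA (color). Open symbols are the cell lines, horizontal ticks with bars are the limma estimate and its standard error, and the dotted line marks the minimum of 1 for a call. Estimates run from 3.22 to 4.13 for Mdm2, Ccng1 and Trp53inp1, from 1.27 to 1.88 for Mdm4 and Ppm1d, from 0.83 to 0.92 for Rchy1 and from 0.01 to 0.08 for Cop1.

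The order of the members changed with the state. With sgBgal the Control means were, in TPM, 83.6 ± 13.2 for Mdm2 (SD, n = 3), 68.9 ± 12.2 for Ccng1, 52.7 ± 6.71 for Rchy1, 17.8 ± 2.62 for Ppm1d, 17.0 ± 4.23 for Trp53inp1, 15.03 ± 2.34 for Cop1 and 9.81 ± 3.54 for Mdm4. The ranges of neighbors in this order overlapped everywhere except between Rchy1 and Ppm1d. After restoration the means with sgBgal were 1512 ± 426 for Mdm2, 909 ± 89.9 for Ccng1, 266 ± 18.4 for Trp53inp1, 100.3 ± 12.4 for Rchy1, 48.0 ± 3.41 for Ppm1d, 37.8 ± 6.09 for Mdm4 and 15.2 ± 2.97 for Cop1. In this order no neighbors overlapped with sgBgal, whereas Ppm1d and Mdm4 overlapped with both Ppia sgRNAs and Mdm2 and Ccng1 with sgPpia#4.1. By their means Trp53inp1 had moved past Rchy1, and Mdm4 past Cop1, with each sgRNA. Trp53inp1 also passed Ppm1d with sgBgal, while with both Ppia sgRNAs its Control mean already lay above that of Ppm1d.

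The second question was whether targeting Ppia altered the regulators. No member was called in any of these comparisons, and no gene was: 0% of the 12828 genes passed in either state with either Ppia sgRNA. Ppia itself was among the genes that missed, although with sgPpia#3.2 it stood at 25.5% to 42.4% of sgBgal in Control cells. The 0% therefore does not show that targeting Ppia was without effect. By unadjusted limma p, 311 genes with sgPpia#3.2 and 27 with sgPpia#4.1 were under 0.05 in Control cells, and 154 and 68 in Restored cells. When cell line entered as a replicate block in limma, 2 genes passed for sgPpia#3.2 in Control and 1 in Restored cells, none of them a member. Before adjustment, that fit put 1628 genes under 0.05 with sgPpia#3.2 in Control cells and 162 with sgPpia#4.1, against 1108 and 424 in Restored cells. In Restored cells Trp53inp1 was lower with a Ppia sgRNA than with sgBgal in 6 of 6 comparisons within a line, at 51.2% to 90.3% of the level with sgBgal. Mdm2, Mdm4, Ppm1d and Ccng1 were lower in 5 of 6 each, Rchy1 in 4 of 6 and Cop1 in 2 of 6. Both Ppia sgRNAs are set against the same sgBgal samples, so these counts are not independent. The median of all genes tested was also below 0 in Restored cells, at -0.09 with sgPpia#3.2 and -0.07 with sgPpia#4.1.

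For Trp53inp1 the log2 difference in Restored cells was -0.48 with sgPpia#3.2 (95% interval -1.10 to 0.14, limma adjusted p = 1) and -0.49 with sgPpia#4.1 (95% interval -1.11 to 0.13, limma adjusted p = 1). Each rested in part on 1 line: Trp53inp1 was at -0.26 without 4711-18 for sgPpia#3.2 and at -0.26 without 4711-1 for sgPpia#4.1. For Mdm2 it was -0.16 (95% interval -0.74 to 0.42) and -0.40 (95% interval -0.98 to 0.18). When cell line entered as a replicate block, the interval of Mdm2 with sgPpia#4.1 was -0.77 to -0.03 (limma adjusted p = 0.969), and it was -0.66 to 0.04 when the values were rescaled as well. The Mdm2 difference with sgPpia#4.1 was largest in 4711-1, at 54.1% of sgBgal, against 85.6% in 4711-18 and 93.5% in 4716-11, and without 4711-1 it was -0.16. For sgPpia#3.2 the Mdm2 difference was 0.01 without 4711-18. The intervals of Mdm4, Ppm1d, Ccng1, Rchy1 and Cop1 in Restored cells all included 0, and reached down to -0.94 for Mdm4 with sgPpia#4.1, so a missed threshold does not show that the levels were alike.

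In Control cells Ppm1d was lower with a Ppia sgRNA in 6 of 6 comparisons within a line, at 74.0% to 96.9% of sgBgal. Its log2 difference was -0.24 with sgPpia#3.2 (95% interval -0.62 to 0.15) and -0.10 with sgPpia#4.1 (95% interval -0.48 to 0.29), and limma gave adjusted p = 1 for both. The median of all genes tested was also below 0 in Control cells, at -0.08 with sgPpia#3.2 and -0.04 with sgPpia#4.1. Here too both Ppia sgRNAs share the sgBgal samples. Trp53inp1 was lower in 2 of 6, and there it ranged from 69.0% to 174% of sgBgal. Mdm4 ranged from 57.3% to 128%. Mdm2, Rchy1, Cop1 and Ccng1 lay between 72.2% and 111% of sgBgal. Trp53 itself, still trapped, was lower with a Ppia sgRNA in 6 of 6 comparisons in Control cells (64.8% to 98.3% of sgBgal) and in 4 of 6 in Restored cells (87.8% to 108%). The part of the Trp53 level in these differences was not tested.

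**Figure D4:**
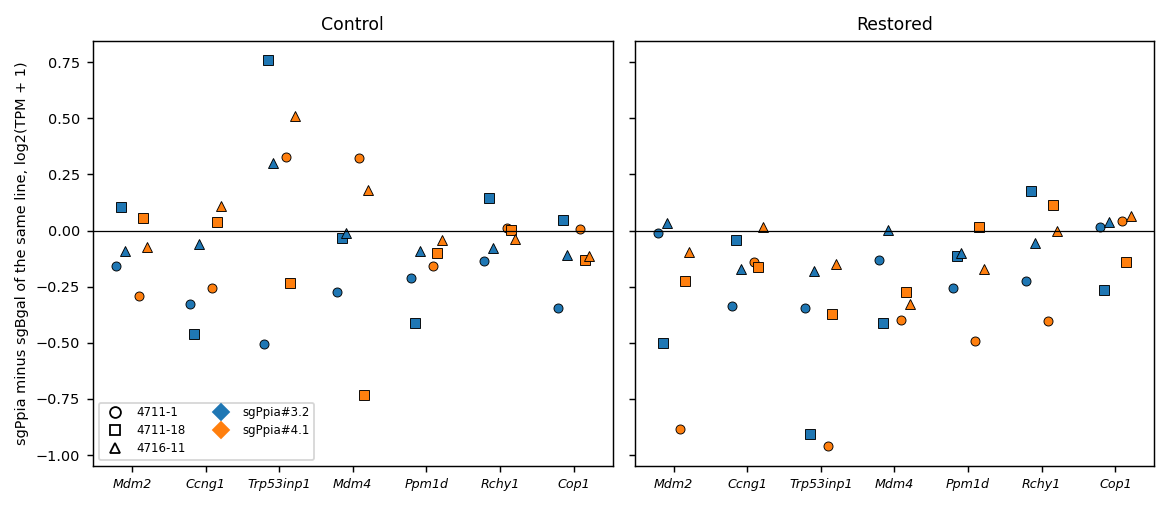
Difference of log2(TPM + 1) between a Ppia sgRNA and sgBgal in the same cell line, for each regulator in Control (left) and Restored cells (right). Color gives the sgRNA, symbol shape gives the cell line, and the horizontal line marks no difference. In Restored cells the points of Trp53inp1 are all below 0, and the 3 lowest points belong to Trp53inp1 and Mdm2 in 4711-1 with sgPpia#4.1 and to Trp53inp1 in 4711-18 with sgPpia#3.2.

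Whether the response to p53 itself differed from that of sgBgal populations was tested as an interaction in limma, and again no member and 0% of all genes passed. Without adjustment, 31 genes passed 0.05 for sgPpia#3.2 and 18 did for sgPpia#4.1 (175 and 80 with cell line as a block). For Trp53inp1 the response was smaller by 0.66 with sgPpia#3.2, with a 95% interval of the difference from -1.54 to 0.21, and by 0.69 with sgPpia#4.1, with an interval from -1.57 to 0.18 (limma adjusted p = 1 for both). Leaving out 1 cell line moved the Trp53inp1 difference to between -1.08 and -0.16 for sgPpia#3.2, the value nearest 0 being that without 4711-18, and to between -0.97 and -0.40 for sgPpia#4.1, the value nearest 0 being that without 4711-1. The values farthest from 0 were -1.08 without 4711-1 for sgPpia#3.2 (95% interval -2.07 to -0.08) and -0.97 without 4711-18 for sgPpia#4.1 (95% interval -1.91 to -0.04). Both of these intervals lay below 0, and neither difference passed after adjustment (limma adjusted p = 1 for both). The interaction estimates of the other 6 members lay between -0.11 and 0.10 for sgPpia#3.2 and between -0.30 and 0.07 for sgPpia#4.1. With sgPpia#4.1, leaving out a line moved the estimate to between -0.62 and -0.026 for Mdm4 and between -0.44 and -0.15 for Mdm2.

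The cell lines themselves differed in the regulators before restoration. Mdm4 (limma F test, adjusted p = 0.0275), Rchy1 (adjusted p = 0.01) and Cop1 (adjusted p = 0.00958) were called, 3 of 7, while 50.2% of all genes tested were called, so this share is near the background. Cop1 was at 11.7 ± 0.58 TPM in 4716-11 (SD over 3 sgRNA populations), below 15.5 ± 2.21 in 4711-1 and 15.7 ± 1.04 in 4711-18. Rchy1 was lower in 4711-1, at 43.8 ± 2.55 TPM, than in 4711-18 (57.5 ± 3.44) and 4716-11 (56.0 ± 1.54). Mdm4 was lowest in 4716-11, at 6.70 ± 0.58 TPM, against 9.85 ± 2.26 in 4711-1 and 11.4 ± 3.23 in 4711-18. With every sgRNA, Rchy1 was lowest in 4711-1 and Cop1 was lowest in 4716-11. The calls did not all hold with fewer samples. Called members were 0 of 7 without the sgBgal populations, Mdm4 alone without those with sgPpia#4.1, and Cop1 and Ccng1 without those with sgPpia#3.2. Over all genes tested the calls fell too, from 6444 of 12828 to 3342 of 12513, 3823 of 12584 and 5403 of 12544 in the same order. Without the sgBgal populations the spread of the line means was 0.43 for Rchy1 (limma adjusted p = 0.0707), against 0.39 with all samples, and 0.41 for Cop1 (limma adjusted p = 0.111), against 0.39. Mdm4 also missed the threshold when no filter on low values was used (limma adjusted p = 0.0535). Ccng1 (adjusted p = 0.12) also passed with the sgRNA as a replicate block (limma adjusted p = 0.0479). The populations of a line share their origin, so these p-values cover the spread between sgRNA populations only. For the size of the response to p53, 0 of 7 members differed between lines, where 3.59% of all genes were called. An unadjusted p under 0.05 was found for 1 member and for 2197 of the 12828 genes. The background of 460 called genes fell to 44 without the sgBgal populations and to 29 without those with sgPpia#4.1.

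The genes that work with the regulators were read from lists of their partners, in the mean of the sgRNAs, where the median change of all genes tested was 0.17. Over all genes, 6.37% were called up and 2.56% down, and by adjusted p alone 27.9% were higher and 11.2% lower. Of 16 tested p53 ubiquitin ligases and adaptors outside the set, 2 were called up and 0 down, with a median of 0.21. Wwp1, a HECT-type ligase, went from a median of 11.1 to 29.7 TPM (log2 difference 1.30, limma adjusted p = 2.5e-07), and Siah1a, a RING-type ligase with close relatives whose reads may be shared, from 28.4 to 60.6 TPM (1.00, adjusted p = 0.00019). In the COP1 ligase complex 1 of 8 genes was called: Dda1, a small subunit tied to DDB1, went from 149 to 359 TPM (1.18, limma adjusted p = 6.93e-06). When cell line entered as a replicate block, Rnf144b of the first list was called as well (log2 difference 1.03, limma adjusted p = 7.65e-05, against 0.166 without it), a RING-type ligase that was not called after rescaling. Cul4a, Cul4b, Ddb1, Det1, Rbx1, Trib1 and Trib2, the rest of the COP1 complex, were not called. After median-of-ratios rescaling Wwp1 remained called (1.11), while Siah1a (0.81) and Dda1 (0.98) fell below the minimum of 1.

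Of 20 tested genes that regulate Mdm2 and Mdm4, none was called. By adjusted p alone 3 were higher and 6 lower (6 and 8 in the fit with cell line as a block), and the list median was 0.01. The lower ones included Cdkn2a, which encodes the Mdm2 inhibitor Arf along with p16 (limma log2 difference -0.50, adjusted p = 0.000406), with 1240 to 1789 TPM in Control and 787 to 1250 TPM in Restored samples. Also lower were Rpl5 (-0.64) and Rpl11 (-0.61), ribosomal proteins that bind Mdm2, and the nucleolar Npm1 (-0.51) and Ncl (-0.60). These and the higher genes were picked after their values were seen, since the rule for named genes covered called ones only. The higher ones were Rassf1 (0.61) and the ubiquitin-conjugating enzymes Ube2d1 (0.30) and Ube2d2a (0.32), which can serve Mdm2. After rescaling 1 gene of this list was higher and 9 were lower by adjusted p. Over all 12828 genes, 4746 passed by adjusted p after rescaling, 2318 of them higher. With cell line as a block 8137 passed, 5660 of them higher.

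Among 12 p53 kinases and Ppm1d substrates, H2ax was called down, from a median of 111 to 32.4 TPM (log2 difference -2.02, limma adjusted p = 1.23e-05). H2ax encodes the histone variant whose phosphorylated form Ppm1d is known to clear. The other 11 were not called, and the list median was 0.08. No PP2A subunit of the 9 that can bind cyclin G was called (2 higher and 1 lower by adjusted p, median 0.08). Of 11 tested paralogs of the members, 1 was called: Trp53inp2, a relative of Trp53inp1 with a part in autophagy, went from 31.4 to 69.6 TPM (1.06, limma adjusted p = 6.25e-05), but it fell to 0.86 after rescaling. For scale, 11 of 12 canonical p53 targets were called up, with a median of 2.30, so Mdm2, Ccng1 and Trp53inp1 lay above that median and Mdm4, Ppm1d and Rchy1 below it. Cdkn1a, the gene of p21, had a log2 difference of 4.08, next to the 3.99 of Mdm2.

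**Figure D5:**
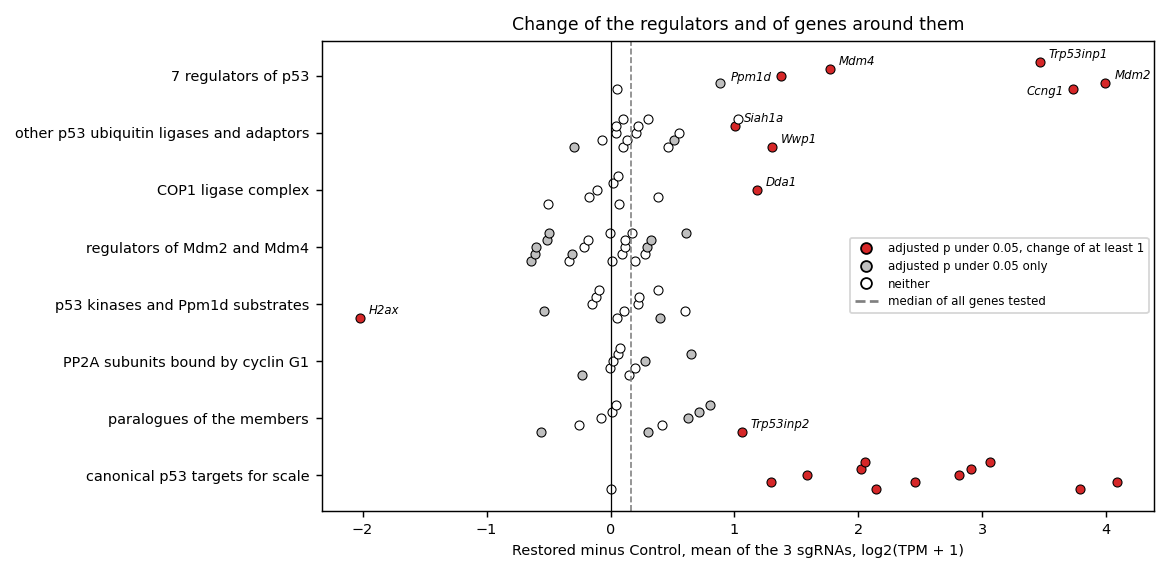
Restored minus Control difference of log2(TPM + 1), averaged over the 3 sgRNAs, for the 7 regulators and for each tested gene of 7 lists of partners. Red points were called, grey points passed the adjusted p only, open points passed neither, and the dashed line is the median of all genes tested (0.17). Called genes are named in all lists but the canonical p53 targets, where 11 of 12 were called.

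By Pearson correlation of log2(TPM + 1) over the 18 samples, the genes with the most similar profile were Inka2 for Mdm2 (r = 0.998), Ei24 for Ccng1 (r = 0.997), Lrrc28 for Trp53inp1 (r = 0.990), Pik3r3 for Ppm1d (r = 0.987), Pdrg1 for Rchy1 (r = 0.983), Sulf2 for Mdm4 (r = 0.980) and Surf6 for Cop1 (r = 0.912). Trp53 itself was second for Ccng1 (r = 0.995). The samples share cell lines and fall into 2 clusters, Control and Restored, for all members but Cop1, so these values are a description of likeness and carry no test. Ei24 was also second for Ppm1d (r = 0.985), and Slc19a2 was among the closest 3 of both Mdm2 and Trp53inp1.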

How the data were processed

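RNA-sequencing libraries (NEBNext Ultra II) of 18 samples had been made, and the authors deposited 1 table of TPM for 25239 genes, which was used as deposited. The submitters' processing notes name bcl2fastq 2.17 and HISAT2. The methods name Kallisto or HISAT2 and give both mm10 and GRCm39 for the genome, so the build is uncertain. The counter, the annotation and the strand setting are not given in the sources used here. Sequencing depth is unknown from TPM, so no counting interval was computed. Coordinates and promoters come from the GRCm38 reference alone.

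The 12828 genes that reached 1 TPM in 3 or more samples were tested on log2(TPM + 1), which understates changes of low genes. limma 3.58.1 in R 4.3.3 was fitted to all 18 samples, with Benjamini-Hochberg adjustment over all genes tested. Calls needed an adjusted p under 0.05 and, for restoration and sgRNA comparisons, a log2 fold change of 1 or more in size, thresholds taken from the study's methods. Ratios were compared with exact permutation tests in scipy 1.17.1 (Python 3.11.15). The fits were tested on simulated data. Alternatives were another pseudocount (0.1), median-of-ratios rescaling, no filter or one at 5 TPM, trended robust variances, the cell line or sgRNA as a replicate block, only the groups compared, and leaving out each line or sgRNA. Rescaling together with the block was added after seeing the data.

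The pairing of samples comes from the cell line in the labels. Deviations from the condition means correlated at a mean r of 0.73 over 45 pairs of samples of the same line (lowest 0.58). Over 90 pairs that differ in both line and condition the mean r was -0.36. Deviations cancel over the 3 lines of a condition, so a negative value between lines is built in. Named genes were all 7 members, the called genes of each partner list (at most 4), members of a list needed to state its count and the 3 most similar profiles per member, besides Ppia and Trp53. Rnf144b and the uncalled regulators of Mdm2 and Mdm4 were named after their values were seen, as were the spread of Cdkn1a and the folds set beside it. The members, lists and rules were chosen with earlier results of these data known. Nothing states that samples came from separate cultures beyond the cell line and sgRNA, so p-values measure the spread between these samples only. One marker of the neuroendocrine list, and the sum and count over that list, are not reported here.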

Additional observations from a re-analysis of the deposited data

How the results depend on the processing

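When the cell line entered as a replicate block, 5 of 7 members stayed called with each sgRNA and in the mean, and the block changed no other call of a member on restoration. The count of called members on restoration was 4 or 5 under all alternatives that kept the fold minimum. It was 4 for sgPpia#3.2 without 4711-1 and for sgPpia#4.1 without 4716-11. For the lines in Control, leaving out each sgRNA gave 0 to 2 called members, against 3. Without a filter on low values 2 were called, Mdm4 being lost. Over all genes, calls moved by more than 1.5 times for sgBgal from 980 to 604 without 4711-1 and 471 without 4716-11, for sgPpia#3.2 from 738 to 439, 229 and, in the compared groups alone, 401, and for sgPpia#4.1 from 781 to 477 without 4711-18, 278 without 4716-11, 474 in the compared groups alone and 1177 with the block. Calls for the lines in Control moved from 6444 to 3342 without sgBgal and 3823 without sgPpia#4.1, and calls for the response of the lines from 460 to 44 and 29 in the same order, 256 with a pseudocount of 0.1 and 280 with a filter at 5 TPM. Leaving out a line, or other groups, puts fewer samples in the fit, and the cause of the other moves was not tested. Signs changed only for estimates that passed no threshold. After median-of-ratios rescaling, with or without the block, Cop1 on restoration was -0.20 with sgBgal, -0.11 with sgPpia#3.2, -0.0855 with sgPpia#4.1 and -0.13 in their mean. In Control cells Mdm2 became 0.0432 and Rchy1 0.066 with sgPpia#3.2, and Rchy1 0.037 and Ccng1 0.00935 with sgPpia#4.1. In Restored cells Rchy1 became 0.0744 and Cop1 0.0334 with sgPpia#3.2, Cop1 became 0.0747 with sgPpia#4.1, and the Rchy1 interaction with sgPpia#3.2 became 0.00838. Leaving out a line moved Cop1 on restoration with sgBgal to between -0.0879 and 0.13. In Control cells with sgPpia#3.2 it moved Mdm2 to between -0.12 and 0.00841, Rchy1 -0.11 and 0.0336, and Trp53inp1 -0.10 and 0.53, and with sgPpia#4.1 Rchy1 to between -0.0181 and 0.00751, Mdm4 -0.28 and 0.25, and Ccng1 -0.11 and 0.0745. In Restored cells with sgPpia#3.2 it moved Mdm2 to between -0.26 and 0.0109, Rchy1 -0.14 and 0.0612, and Cop1 -0.12 and 0.028, and with sgPpia#4.1 Rchy1 to between -0.20 and 0.0558, and Cop1 -0.0467 and 0.0559. The interaction with sgPpia#3.2 moved to between -0.24 and 0.13 for Mdm2, -0.031 and 0.0276 for Rchy1, -0.0808 and 0.26 for Cop1, -0.18 and 0.0776 for Mdm4, -0.0268 and 0.15 for Ppm1d, and -0.0616 and 0.20 for Ccng1, and that with sgPpia#4.1 to between -0.19 and 0.0739 for Rchy1, and -0.15 and 0.00925 for Ccng1. The compared groups alone were not run for the mean of the sgRNAs, which uses all groups. Depth is unknown and sets no limit here that could be computed.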
